A study of Mus musculus with 4 samples.

Results

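The stellate cell and extracellular matrix genes of regenerating mouse liver were taken from a list of 52 gene symbols, and a gene was measured when at least 1 probe set carried its symbol and no other. This held for 46 of the 52, read by 81 of the 18852 probe sets, among 10923 genes in all. Lrat, Tnc, Fbn1, Plod2, Loxl2 and Thbs1 were not analysed here; the probe set of Thbs1 also carries the symbol of a second gene. Male C57BL6/J mice aged 6 to 13 weeks were injected once with siRNA carried by the lipid reagent Invivofectamine, the siRNA being either a control (siControl) or directed against Orm (siOrm). Orm1 codes for orosomucoid, which hepatocytes secrete in the acute phase response. After 3 days 40% of the liver was removed in every mouse, of both groups, and the regenerating liver was taken 48 hours later. RNA was hybridised to 4 Affymetrix expression arrays, 2 per group; no liver without hepatectomy and no mouse without siRNA was included. Whether each array holds RNA of 1 mouse or of several is not stated, so the p-values rest on the spread among these 4 samples alone, and that spread could be technical.

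Hepatic stellate cells lie between hepatocytes and the sinusoidal endothelium, store vitamin A, and are the main source of collagen when the liver is injured. On activation they take on features of a myofibroblast, with contractile proteins, PDGF receptors and secretion of fibrillar collagen. Matrix is also made by portal fibroblasts, endothelial cells, smooth muscle and, for fibronectin, hepatocytes. In whole-liver RNA, fewer cells of a type and less RNA per cell cannot be told apart.

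Every array value below is a log2 signal relative to the median of the 4 arrays for the same probe set, averaged over the probe sets of a gene, with base 2 assumed because the deposited table does not name it. Absolute level is lost in such values, so neither the presence of stellate cells nor the level of 1 gene against another can be read from them. Of the defining markers of these cells, Lrat was not analysed, while Des, Pdgfrb, Reln, Ngfr, Gfap, Hand2 and Cygb had values. For a gene with 1 probe set the 2 middle arrays lie equally far on either side of 0 by construction. Array values are given in the order replicate 1 and replicate 2.

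None of the 46 genes passed the test between the groups. With limma and Benjamini-Hochberg adjustment over all genes, 0 of the 46 passed an adjusted p of 0.05, as did 0% of all 10923 genes, and the smallest adjusted p among the 46 was 0.994. At an unadjusted p under 0.05 there was 1 gene, Ecm1 (2.17%, against 4.76% of all genes); it was higher in siOrm, as were 2.18% of all genes at that p, while 0 of the 46 were lower, against 2.58%. The difference siOrm minus siControl was negative for 26 and positive for 20, with a median of -0.02 (0.02 after quantile normalization) against 0.01 over all genes. The siOrm pair lay wholly above the siControl pair for 3 of the 46 (6.52%, against 17.0% of all genes), namely Ecm1, Reln and Mmp2. It lay wholly below for 5 (10.9%, against 15.3%), namely Nid2, P4ha1, Mmp14, Timp2 and Pdgfra. For the other 38 the groups overlapped. The 95% interval of the difference reached from 0.31 to 1.29 log2 units on either side of the estimate, with a median of 0.48, and differences within it cannot be told from 0 with 2 arrays per group. The targeted gene, Orm1, stood at 0.02 and 0.19 in siControl and at -0.24 and -0.02 in siOrm, a difference of -0.23 (SE 0.15; limma, adjusted p = 0.994); its direction is that of the label, and it did not pass the test.

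**Figure D1:**
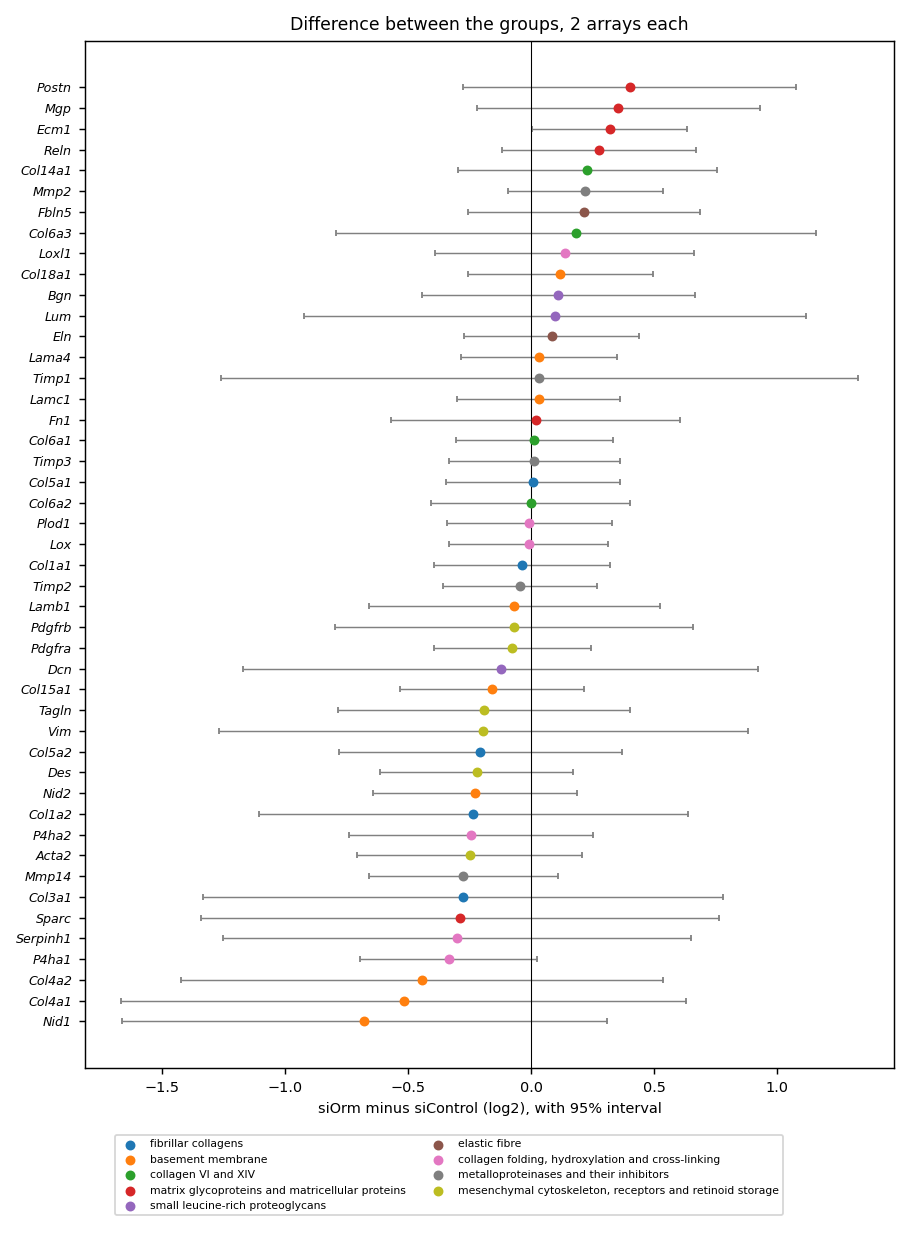
Difference between the group means (siOrm minus siControl, log2) for each of the 46 measured genes, as points coloured by role, with the 95% interval from limma as bars; 2 arrays per group. Intervals cross 0 for 45 of the 46 genes, Ecm1 being the exception, and those of Timp1, Col4a1 and Vim are among the widest.

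The arrays of 1 group lay farther apart for these genes than for genes at large. The siControl replicate 2 array was the highest of the 4 for 25 of the 46 (54.3%, against 28.1% of all genes), and siControl replicate 1 was the lowest for 19 (41.3%, against 20.6%). The siControl replicate 2 array was also the lowest for 38.9% of all genes, against 6 of the 46 (13%). Of all genes, 624 stood above 0.5 on it, against 70 on siControl replicate 1, 126 on siOrm replicate 1 and 38 on siOrm replicate 2. Extremes on that array were thus not confined to these genes. The 2 siControl arrays differed by a median of 0.31 log2 units over the 46 genes, against 0.20 over all genes, and the 2 siOrm arrays by 0.23 against 0.13. In siControl, replicate 2 exceeded replicate 1 by more than 1 log2 unit for 11 genes (23.9%, against 2.08% of all genes), a limit chosen after the values were seen. In siOrm, replicate 2 exceeded replicate 1 for 33 of the 46 genes (71.7%, against 53.2%), and by more than 0.4 log2 units, again a limit chosen after the values were seen, for 11 (23.9%, against 5.21%).

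**Figure D2:**
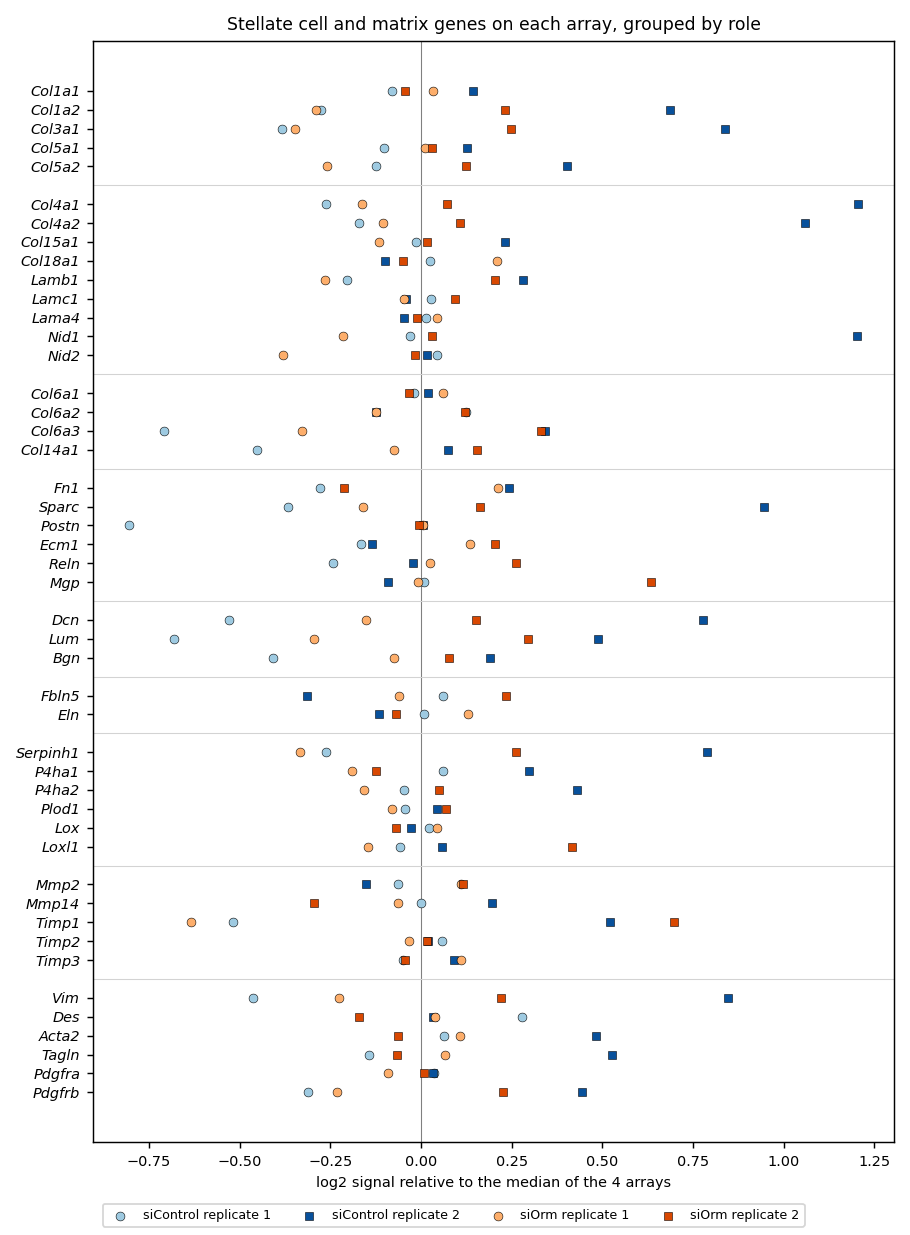
Log2 signal relative to the median of the 4 arrays for each measured gene, 1 symbol per array, with horizontal lines between the roles. The dark blue squares of siControl replicate 2 lie farthest to the right for 25 of the 46 genes, while the pale blue circles of siControl replicate 1 lie farthest to the left for 19.

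The fibrillar collagens are the rope-like proteins of scar and of portal stroma. All 5 gene means were highest on the siControl replicate 2 array. The groups were separated for 0 of 5, against 17.0% of all genes above and 15.3% below. Their median difference was -0.21, which turned to 0.03 after quantile normalization. Col3a1, a chain of the collagen of early repair, stood at -0.38 and 0.84 in siControl and at -0.35 and 0.25 in siOrm. Its difference of -0.28 (SE 0.42) was far smaller than the 1.22 between the 2 siControl arrays. Col1a2, a chain of type I collagen, was likewise low on both replicate 1 arrays, with -0.28 and 0.69 in siControl against -0.29 and 0.23 in siOrm (difference -0.23, SE 0.35, and 0.03 after quantile normalization). Col1a1, the partner chain of Col1a2 in the same triple helix, varied much less, with -0.08 and 0.14 against 0.03 and -0.04 (difference -0.04, SE 0.14). Col5a2, a chain of the type V collagen that starts fibrils, stood at -0.12 and 0.40 in siControl and at -0.26 and 0.12 in siOrm, a difference of -0.21 (SE 0.23). For Col5a1, at -0.10 and 0.13 against 0.01 and 0.03, the 3 probe sets ran from -0.13 to 0.10 in their differences. Only 1 of them was highest in siControl replicate 2, at 0.43, the others standing at -0.01 and -0.04 there.

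The basement membrane genes code for the network under endothelium and around vessels. Here 5 of 9 were highest in siControl replicate 2, and Nid2 was the 1 gene whose groups did not overlap. That is 11.1% wholly below in siOrm, against 15.3% of all genes, and 0% wholly above, against 17.0%. Col4a1 and Col4a2, the chains of the common type IV collagen, moved alike. Col4a1 stood at -0.26 and 1.20 in siControl against -0.16 and 0.07 in siOrm. Col4a2 stood at -0.17 and 1.06 against -0.11 and 0.11. In linear terms siControl replicate 2 was 2.76 times siControl replicate 1 for Col4a1 and 2.34 times for Col4a2, while the group differences were -0.52 (SE 0.46) and -0.44 (SE 0.39). Nid1, which links the laminin and collagen IV networks, had the most negative difference of the 46 genes, -0.68 (SE 0.40), with -0.03 and 1.20 against -0.22 and 0.03. That value came from 1 of its 2 probe sets, which differed by -1.32, whereas the other differed by -0.03. Nid2, a relative with the same function, stood at 0.04 and 0.02 in siControl and at -0.38 and -0.02 in siOrm, a difference of -0.23 (SE 0.17). Without siOrm replicate 1 the difference of Nid2 from the siControl mean was -0.0447. The nearest values of the groups were siControl replicate 2 at 0.0156 and siOrm replicate 2 at -0.0156, mirrored around 0 by the centring. The laminin chains Lamb1, Lamc1 and Lama4 differed by -0.07, 0.03 and 0.03, and the vessel-associated collagens Col15a1 and Col18a1 by -0.16 and 0.12.

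Col4a1 and Col4a2 are neighbours that are transcribed away from each other, and the starts used in RefSeq's table (GRCm38.p6) overlap by 22 bases on chromosome 8. RefSeq's table of promoters held 30 of the 46 genes. The 250 bases before each start were searched for CCAAT, a box bound by the factor NF-Y, on both strands. It was present for 11 of the 30 genes (36.7%), against 37.5% of 27025 genes in the table. Of the 11 genes that stood above 0.5 on the siControl replicate 2 array (23.9% of the 46, against 5.71% of all genes), 9 were in the table and 6 held the box, against 5 of 21 (23.8%) of the others; this split used the array values, so it is a description only. GGGCGG, the GC box, was present for 20 of the 30 (66.7%), against 35.4% of the 27025 genes. Those are the genes of the promoter table, not those of the arrays, so the 30 stand beside an unlike set. In the same split GGGCGG went the other way, with 5 of 9 (55.6%) against 15 of 21 (71.4%). TATAAA, searched on a single strand, was present for 2 of 9 (22.2%) against 2 of 21 (9.52%). A link between any of these motifs and the array values was not tested. The sequences below show the CCAAT box, in capitals, for 4 genes that hold it and were highest on the siControl replicate 2 array. ATTGG is the same box on the other strand. All are plus strand of GRCm38.p6, 5′ to 3′, and lie before the start of the named gene, at chr8:11312760-11312789, chr6:4505481-4505540, chr2:13574189-13574248 and chr13:13437483-13437542 in the order given. The Col4a2 stretch also lies within the transcribed part of Col4a1.
Col4a2: cccgaggagctccCCAATttgttggcgctg
Col1a2: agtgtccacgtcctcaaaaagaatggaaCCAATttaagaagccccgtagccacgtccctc
Vim: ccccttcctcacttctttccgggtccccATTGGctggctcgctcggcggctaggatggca
Nid1: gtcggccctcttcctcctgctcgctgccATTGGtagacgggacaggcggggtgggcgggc

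The remaining collagens did not share 1 pattern. Col6a3, a chain of the beaded filaments around cells, stood at -0.71 and 0.34 in siControl and at -0.33 and 0.33 in siOrm, so the replicate 2 array was the higher in both groups (difference 0.18, SE 0.39). The other chains of the same filament, Col6a1 and Col6a2, lay within 0.13 of 0 on all 4 arrays and differed by 0.01 and -0.0015. Col14a1, which decorates fibrils, stood at -0.45 and 0.07 against -0.07 and 0.15 (difference 0.23, SE 0.21), and siControl replicate 1 was its lowest array.

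Glycoproteins and matricellular proteins, which sit in the matrix and act on cells, held the 1 gene with an unadjusted p under 0.05. Ecm1, a secreted matrix protein that in liver limits the activation of latent TGF-beta, stood at -0.17 and -0.13 in siControl and at 0.13 and 0.20 in siOrm. Both siOrm arrays were the higher, and the difference was 0.32 (SE 0.13, 95% interval 0.00 to 0.63; limma, adjusted p = 0.994). The unadjusted p of Ecm1 was no longer under 0.05 in 7 of 11 alternatives, among them each of the 4 fits that left out 1 array. Reln, a secreted glycoprotein that in liver marks stellate cells, was also separated, with -0.24 and -0.02 against 0.02 and 0.26 (difference 0.28, SE 0.16). The gap between the groups was narrow, from siControl replicate 2 to siOrm replicate 1. Mgp, an inhibitor of calcification, stood at 0.63 in siOrm replicate 2 and between -0.09 and 0.01 on the other arrays. Postn, a matricellular protein of activated fibroblasts, had the largest positive difference, 0.40 (SE 0.27), through 1 array: siControl replicate 1 stood at -0.80 and the other 3 within 0.01 of 0. Sparc, a collagen-binding protein, followed the type IV collagens, with -0.37 and 0.94 against -0.16 and 0.16. Fn1, fibronectin, stood at -0.28 and 0.24 in siControl and at 0.21 and -0.21 in siOrm, a difference of 0.02 (SE 0.24). That order of arrays came from 1 of its 2 probe sets, at -0.70 and 0.63 against 0.44 and -0.44. The other ran the reverse way within each group, at 0.14 and -0.15 against -0.01 and 0.01.

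The small leucine-rich proteoglycans bind collagen fibrils and set their spacing. All 3 had the same order of arrays, with siControl replicate 1 the lowest and siControl replicate 2 the highest. Dcn, decorin, stood at -0.53 and 0.78 in siControl and at -0.15 and 0.15 in siOrm. Lum, lumican, stood at -0.68 and 0.49 against -0.29 and 0.29, and Bgn, biglycan, at -0.41 and 0.19 against -0.08 and 0.08. Both siOrm arrays therefore lay between the 2 siControl arrays for all 3 genes, and the differences were -0.12 (SE 0.42; 0.09 after quantile normalization), 0.10 (SE 0.41) and 0.11 (SE 0.22). Dcn and Lum are adjacent genes. The gene means of the 2 measured elastic fibre genes went the other way on siControl replicate 2, which was their lowest array. Fbln5, a protein of fibre assembly, stood at 0.06 and -0.31 against -0.06 and 0.23, and Eln, elastin, at 0.01 and -0.12 against 0.13 and -0.07. For Eln that came from 1 of its 2 probe sets, at -0.30 on siControl replicate 2. The other stood at 0.07 there, above siControl replicate 1 at -0.07.

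Collagen needs hydroxylases and a chaperone in the endoplasmic reticulum before it can be secreted, and oxidases that cross-link it outside the cell. Serpinh1, the collagen chaperone HSP47, stood at -0.26 and 0.79 in siControl and at -0.33 and 0.26 in siOrm, the same order of arrays as Col1a2. P4ha1, a catalytic subunit of prolyl 4-hydroxylase, was separated, with 0.06 and 0.30 against -0.19 and -0.12 (difference -0.34, SE 0.14, unadjusted p = 0.0627). Its probe sets were unequal: 1 differed by -0.63 and the other by -0.04. P4ha2, the alternative subunit, stood at -0.05 and 0.43 against -0.16 and 0.05 (difference -0.24, SE 0.20). The lysyl hydroxylase Plod1 and the cross-linking oxidases Lox and Loxl1 differed by -0.01, -0.01 and 0.14.

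Of the metalloproteinases, which cut matrix, and their inhibitors, 1 of 5 had the siOrm arrays wholly above, against 17.0% of all genes, and 2 wholly below, against 15.3%. Mmp2, a gelatinase, stood at -0.06 and -0.15 in siControl and at 0.11 and 0.12 in siOrm (difference 0.22, SE 0.13). Mmp14, the membrane protease that activates Mmp2, lay the other way, at 0.00 and 0.19 against -0.06 and -0.30 (difference -0.28, SE 0.15). Only 1 of its 2 probe sets had both siOrm arrays below, at 0.02 and 0.36 against -0.26 and -0.02. The other stood at -0.03 and 0.03 in siControl against 0.13 and -0.57 in siOrm. Timp1, an inhibitor induced in activated stellate cells and in inflamed liver, had the widest interval of the 46, from -1.26 to 1.33 around 0.03. Its values were low on both replicate 1 arrays and high on both replicate 2 arrays, with -0.52 and -0.63 for replicate 1 of siControl and siOrm, and 0.52 and 0.70 for replicate 2. Timp2, read by 6 probe sets that ran from -0.41 to 0.27 in their differences, averaged 0.06 and 0.019 against -0.03 and 0.0162, so that its groups were barely apart, and Timp3, read by 4 that ran from -0.09 to 0.20, averaged -0.05 and 0.09 against 0.11 and -0.04. For both of these the mean hides probe sets of opposite sign.

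The cytoskeletal and receptor genes that mark stellate cells were also led by siControl replicate 2, the highest array for 4 of 6. Vim, vimentin, stood at -0.46 and 0.85 in siControl and at -0.23 and 0.22 in siOrm. Pdgfrb, the receptor that drives stellate cell division, stood at -0.31 and 0.44 against -0.23 and 0.23 (difference -0.07, SE 0.29, and 0.13 after quantile normalization), and its probe sets differed by -0.28 and 0.15. The myofibroblast genes Acta2 and Tagln, for smooth muscle actin and transgelin, stood at 0.48 and 0.53 in siControl replicate 2 and between -0.14 and 0.11 on the other arrays. For Acta2 (difference -0.25, SE 0.18) the 2 probe sets disagreed, at -0.73 and 0.23, and siControl replicate 2 stood at 1.24 in the first and at -0.28 in the second. Des, desmin, was highest in siControl replicate 1, with 0.28 and 0.03 against 0.04 and -0.17 (difference -0.22, SE 0.16). That came from 1 of its 2 probe sets, which stood at 0.60 in siControl replicate 1 and differed by -0.43. The other stood at -0.04 there and differed by -0.01. Pdgfra, the receptor of portal fibroblasts and stellate cells, stood at 0.03 and 0.03 against -0.09 and 0.01.

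Because the siControl arrays lay so far apart, the sign of the difference depended on which of them was used for 27 of the 46 genes (58.7%), but also for 44.5% of all genes. Against siControl replicate 2 alone, the mean of the siOrm arrays was lower for 34 of the 46 genes (73.9%, against 43.4% of all genes), with a median of -0.20, and 13 had an unadjusted p under 0.05 (28.3%, against 16.2%). Against siControl replicate 1 alone it was higher for 33 (71.7%, against 46.9%), with a median of 0.13. For 24 genes (52.2%, against 17.4%) it was lower than the first and higher than the second, among them Col1a2, Col3a1, Col4a1, Col4a2, Sparc, Dcn, Vim and Serpinh1. It was lower than both for 10 of the 46 genes, against 2840 of all 10923, and higher than both for 9, against 3221. The 10 include P4ha1, Mmp14, Des, Nid1 and Nid2, and the 9 include Ecm1, Reln, Mmp2, Mgp and Fbln5. With siControl replicate 2 alone, 3 genes passed the test (6.52%, against 2.10% of all genes): Col4a1 at -1.25 (limma, adjusted p = 0.0272), Col4a2 at -1.06 (adjusted p = 0.0381) and Nid1 at -1.30 (adjusted p = 0.0261). That comparison takes a lone array to vary as the siOrm pair does. With siControl replicate 1 alone 0 passed, as did 0% of all genes, with 6 at an unadjusted p under 0.05 (13.0%, against 6.64%), all higher in siOrm, and Col4a1 stood at 0.22, Col4a2 at 0.17 and Nid1 at -0.06.

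**Figure D3:**
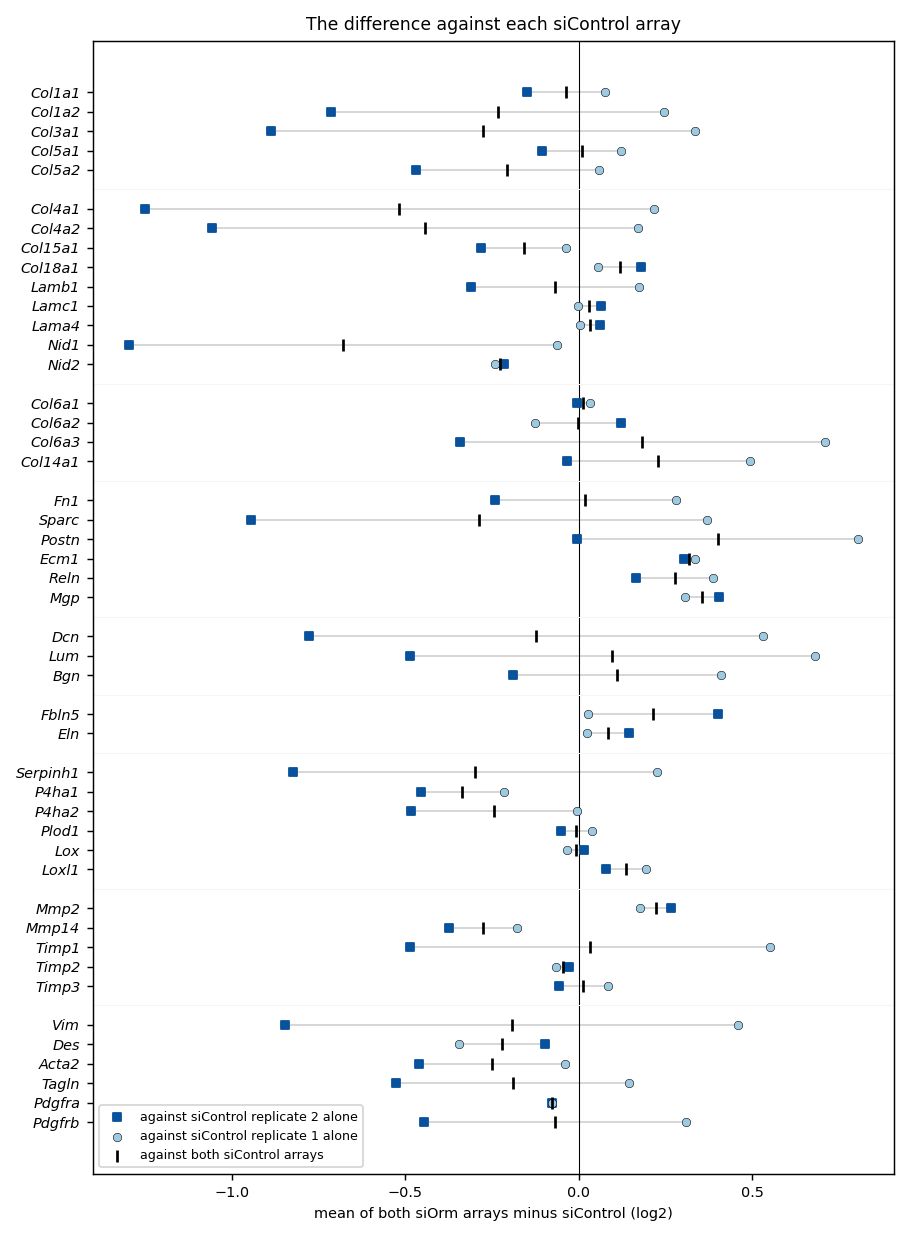
Mean of both siOrm arrays minus 1 siControl array (log2), against siControl replicate 2 alone (dark squares) and siControl replicate 1 alone (pale circles), with the value against both as a tick. The line between the markers crosses 0 for 27 of the 46 genes (58.7%, against 44.5% of all genes), and it is short for Ecm1, Nid2 and Mmp2.

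The arrays of a group are set against each other in the scatter of within-group differences. Replicate 2 exceeded replicate 1 in both groups for 25 of the 46 genes (54.3%, against 25.6% of all genes). Of the 11 genes with an excess above 1 log2 unit in siControl, 10 had a smaller excess in siOrm, as in Col4a1 with 1.47 against 0.23 and Sparc with 1.31 against 0.32. Timp1, with 1.04 against 1.33, was the remaining one, and Fn1 and Mgp had opposite signs in the 2 groups.

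**Figure D4:**
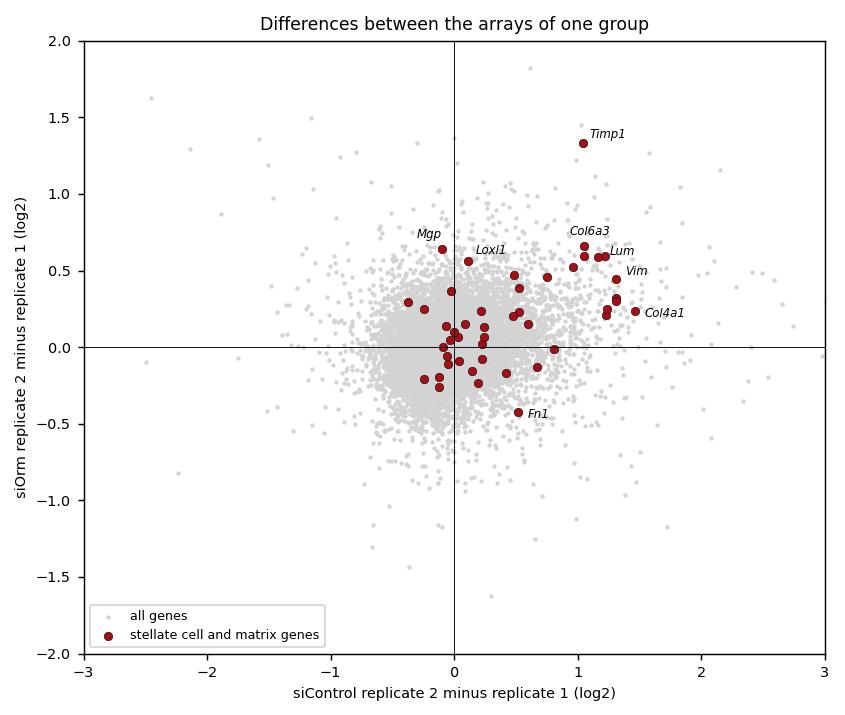
Difference between the 2 arrays of siControl (x axis, log2) and of siOrm (y axis, log2) for all genes in grey and the 46 stellate cell and matrix genes in red; 11 genes lie outside the axes. The group at the right with Vim, Lum and Col4a1 holds the genes whose siControl arrays differed by more than 1 log2 unit, all of them also higher in siOrm replicate 2.

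Markers of other cells moved with the siControl replicate 2 array too. Of 12 macrophage markers 11 were highest there, with a mean of 0.67, whereas siControl replicate 1 had a mean of -0.26 and each siOrm array -0.03. Endothelial markers had a mean of 0.22 there, against -0.16 in siControl replicate 1, with 8 of 11 highest on it. The mean of 9 mitosis genes was 0.70 there and 0.21 in siControl replicate 1, against -0.45 and -0.22 in siOrm. Smooth muscle markers (-0.07 and 0.05 in the same order) and hepatocyte markers (-0.06 and 0.03) did not share this. The mean of the 46 genes was 0.28 on siControl replicate 2, -0.16 on siControl replicate 1, -0.09 on siOrm replicate 1 and 0.10 on siOrm replicate 2. A list of 22 further stellate cell markers, 17 of them measured and 4 of those among the 46 genes, stayed near 0, at -0.02 and 0.03 in siControl against -0.02 and 0.06 in siOrm. Within it the pericyte gene Rgs5 stood at 0.79 and Cygb, cytoglobin, at 0.45 in siControl replicate 2, while Gfap, Hand2 and Ngfr lay at -0.26, -0.17 and -0.07. The part of other cell types in the values of the matrix genes was not tested.

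**Figure D5:**
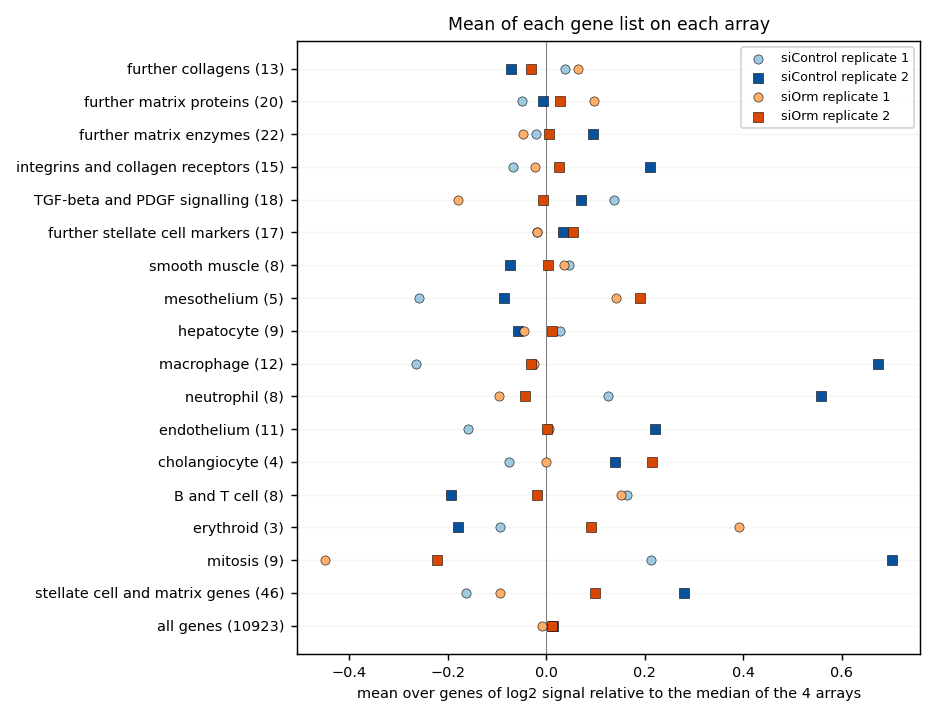
Mean over the measured genes of each list (number in brackets) of the log2 signal relative to the median of the 4 arrays, 1 symbol per array. Macrophage and mitosis lists lie far to the right on siControl replicate 2, as does the neutrophil mean of 0.56, which 2 of 8 genes above 0.5 carry (median 0.03, 3 of 8 highest there), and the 46 stellate cell and matrix genes lie at 0.28 there.

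Other genes of the matrix pathway did not pass the test either. Their counts at an unadjusted p under 0.05 stand against 4.76% of all genes (2.18% higher and 2.58% lower in siOrm). The lists are short, and no list was tested as a set. Of 13 further collagens 1 (7.69%) had an unadjusted p under 0.05. It was Col5a3, a chain of type V collagen, at 0.14 and 0.32 in siControl against -0.14 and -0.25 in siOrm (difference -0.42, SE 0.14). Among 20 further matrix proteins, 22 further matrix enzymes and 15 integrins and collagen receptors there were 0. Of 18 genes of TGF-beta and PDGF signalling there were 2 (11.1%), both lower in siOrm, against 2.58% of all genes. Ccn2, a matricellular protein induced by TGF-beta, stood at 0.57 and 0.43 against -0.81 and -0.43 (difference -1.12, SE 0.17; limma, adjusted p = 0.857), and Skil, a repressor of SMAD signalling, at 0.39 and 0.11 against -0.69 and -0.11 (difference -0.65, SE 0.23). The siOrm arrays lay wholly below for Ccn2, Skil and Col5a3. That is 11.1% of the signalling genes and 7.69% of the further collagens, against 15.3% of all genes. Of the further stellate cell markers Vipr1, a receptor for vasoactive intestinal peptide, had an unadjusted p under 0.05, at -0.11 and -0.47 against 0.37 and 0.11 (difference 0.53, SE 0.18).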

How the data were processed

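The deposited table held 1 log2 value per probe set and array, centred by the authors so that the 4 arrays have a median of 0 (largest row median 4.8e-07); base 2 was assumed. Software, build and normalization between arrays: not given in the sources used here. The labels' protocols name another maker's labelling method and an extraction from cultured cells. A probe set was named through the platform annotation: 17209 had 1 symbol, 564 had several. Probe sets of 1 gene were averaged. The two-sided test was limma's (version 3.58.1, under R 4.3.3; lmFit, eBayes, constant variance prior with 3.60 degrees of freedom beside 2 residual), adjusted by Benjamini-Hochberg over all genes. An exact permutation test of 2 arrays against 2 cannot reach 0.05. Alternatives were other normalization, other probe set rules, a replicate block, no moderation and leaving out each array; the fit was tested on simulated data. The number of arrays limits precision, and signal over background cannot be seen. Members and lists were chosen with earlier results of these data known. Full values were given for Orm1, genes with an unadjusted p under 0.05, the 2 with the smallest p per role, those with probe sets of opposite sign over 0.2 apart, and the stellate cell genes Reln, Des, Pdgfrb, Acta2 and Col1a1; from other lists up to 4 genes with an unadjusted p under 0.05. Others were named after their values were seen. Promoters came from RefSeq (GRCm38.p6).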

Additional observations from a re-analysis of the deposited data

How the results depend on the processing

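When any 1 array was left out, 1 group held a lone array, and a test then takes that array to vary like the other group. Without siControl replicate 1, siOrm lay wholly above siControl for 8 of 46 members, against 44.6% of all genes, and wholly below for 27, against 33.8%. Without siControl replicate 2 it lay above for 20, against 31.6%, and below for 7, against 36.8%. Without siOrm replicate 1 it lay above for 10, against 29.2%, and below for 9, against 23.5%. Without siOrm replicate 2 it lay above for 9, against 32.4%, and below for 17, against 32.4%. With fewer arrays separation is commoner. The median of the members ran from -0.20 to 0.13. By role it ran from -0.47 to 0.12 for fibrillar collagens, -0.30 to 0.0037 for basement membrane, 0.0806 to 0.37 for glycoproteins, -0.49 to 0.53 for small proteoglycans, -0.45 to 0.0519 for cytoskeleton and receptors, and -0.0702 to 0.0845 for metalloproteinases and inhibitors. The highest counts of 3, 229 and 13 came without siControl replicate 1. With plain _at probe sets only, 0 of 42 members had an unadjusted p under 0.05, against 4.57% of all genes. Of these 42, 3 were separated downwards, against 14.8% of all genes. With the most variable probe set the metalloproteinase median was -0.0923. Without variance moderation 2 of 46 members had an unadjusted p under 0.05, against 4.19% of all genes. With the replicate number as a replicate block 0 members had such a p and 0 passed the adjusted one; over all genes the within-group deviations of same-numbered arrays correlated at 0.13, over the members at 0.47, and no label says that the numbers pair the arrays. After quantile normalization the fibrillar collagen median was 0.03. The cause of these shifts was not tested. The difference of Ecm1 was positive in all 11 alternatives, from 0.28 to 0.38, but its unadjusted p stayed under 0.05 in 4 of them: it did not with plain _at probe sets, the replicate block, the most variable probe set (where P4ha1 was the 1 member with such a p) or any 1 array left out.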

Other observations

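Mesothelial markers mark the cell layer on the liver surface. Of 5 measured, the groups were apart for 4, all higher in siOrm (80%, against 17.0% of all genes). Msln, mesothelin, stood at -0.32 and -0.17 in siControl and at 0.26 and 0.17 in siOrm (difference 0.46, SE 0.14), Gpm6a at -0.51 and -0.07 against 0.07 and 0.52 (difference 0.59, SE 0.22) and Upk3b at -0.16 and -0.13 against 0.20 and 0.16 (difference 0.32, SE 0.13). Each had an unadjusted p under 0.05, and none passed over all genes (limma, adjusted p = 0.994). Wt1, the fifth, stood at 0.05 and -0.05 against 0.17 and -0.26. Krt7, which bile duct cells also express, was the fourth of those separated, with a difference of 0.37 (SE 0.19).

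The PDGF ligand gene Pdgfa reached 1.91 on the siControl replicate 2 array, the others lying between -0.41 and 0.06, and Cd44, a receptor for hyaluronan, at 1.75 there and between -0.34 and 0.32 elsewhere. Both were chosen after their values were seen.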
